A study of Mus musculus with 1016 samples.

Results

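The bins described here are 50-kb stretches of the mouse genome that ranked late in one part of the 2-cell embryo cells and early in one part of the morula cells of a single-cell Repli-seq series on preimplantation embryos. The rule used the cells with odd numbers only: in 34 odd-numbered 2-Cell cells and 24 odd-numbered Mol cells (Mol is the label for morula), the share of cells in which each bin had replicated was turned into a percentile rank among all bins, where 0 is the latest and 1 the earliest. Of these cells 6 and 2 had failed the study's own filter on read number and evenness. A bin was chosen when its rank was 0.4 or less in 2-Cell and 0.6 or more in Mol. This gave 4683 of 46235 bins with a call in both (10.1%), or 234 Mb, out of 49264 bins in the tables on the 19 autosomes (mm10). The choice rests on measured values, so these 2 sets of cells are given as a description only, and the chosen bins were then described in 29 even-numbered 2-Cell cells, 23 even-numbered Mol cells and all cells of the other 12 tables.

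Single-cell Repli-seq reads replication from copy number: a bin that has been copied during S phase yields more reads than one that has not. Early replication generally goes with open, gene-rich chromatin and late replication with silent, gene-poor chromatin. In the mouse, major activation of the embryonic genome falls in the 2-cell embryo, and the order in which domains replicate becomes sharper over the following cleavages.

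The 1016 labelled samples gave 733 cells with deposited states, and 714 had a replication score (the percentage of called bins that had replicated) between 10 and 90. Embryos labelled Zygote (20 to 26 h after hCG, the hormone injection that triggers ovulation), 2-Cell (32 to 40 h), 4-Cell (50 to 56 h), 8-Cell (66 to 72 h), 16-Cell (77 and 80 h), Mol (90 to 96 h) and ICM, the inner cell mass of the blastocyst (ICM_96-100h and ICM_102-104h, named by their hours), were (C57BL/6J x CBA) x DBA/2J and untreated. IVF zygotes of the same cross were collected at 6 times, 1 h apart, from 5.5 h after insemination. Parthenotes were (C57BL/6J x CBA)F1 eggs activated without sperm by Sr2+ and collected 5.5 to 12 h after activation. Isolated pronuclei of zygotes were taken at 21 to 25 h, with M the maternal, (C57BL/6J x CBA)F1, and P the paternal, DBA/2J. The other 2-cell groups, of the same cross, had been treated. 2C_Ama received 0.1 mg/mL alpha-amanitin, a poison of RNA polymerase II and III, from 17 h to collection at 34 to 39 h. DRB_2C received 100 uM DRB, an inhibitor of transcription elongation, from 17 h to collection at 34 to 40 h. Kdm5bOE_2C was injected at 18 h with 2 ug/uL mRNA of Kdm5b, a demethylase of histone H3 lysine 4, and collected at 34 to 40 h. The labels tie no cell to a litter. From the 2-cell stage on they tie none to an embryo either, so cells of 1 embryo may be among those of a group, and these groups are given as 1 sample each with the spread over cells and no test. In Zygote, IVF_Zygote and Parthenote a cell is a whole embryo and in M and P a pronucleus of one, and the tests below are over these.

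The chosen bins lay in GC-rich, gene-rich parts of the genome, and the promoters below show the sequence at the start of 6 genes in chosen bins. Up to 3 genes were named from each of the gene lists used further on, by the rise of rank from the even-numbered 2-Cell to the even-numbered Mol cells, and of those with a promoter entry, leaving out 1 chromosome that is not shown here, these 6 rose most. Each is the 200 bases before the RefSeq start, written 5′ to 3′ on the gene's strand, with every CG in capitals.
Zfp263 (GRCm38.p6, chr16:3743899-3744098, plus strand): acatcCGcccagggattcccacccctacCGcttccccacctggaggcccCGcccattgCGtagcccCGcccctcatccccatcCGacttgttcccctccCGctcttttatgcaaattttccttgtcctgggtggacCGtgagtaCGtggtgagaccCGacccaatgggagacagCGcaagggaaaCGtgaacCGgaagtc
Zfp428 (GRCm38.p6, chr7:24506887-24507086, plus strand): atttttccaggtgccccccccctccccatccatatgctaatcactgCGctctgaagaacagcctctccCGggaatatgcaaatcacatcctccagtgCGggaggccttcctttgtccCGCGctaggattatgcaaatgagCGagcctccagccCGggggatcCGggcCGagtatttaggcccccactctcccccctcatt
Chmp2a (GRCm38.p6, chr7:13034778-13034977, minus strand): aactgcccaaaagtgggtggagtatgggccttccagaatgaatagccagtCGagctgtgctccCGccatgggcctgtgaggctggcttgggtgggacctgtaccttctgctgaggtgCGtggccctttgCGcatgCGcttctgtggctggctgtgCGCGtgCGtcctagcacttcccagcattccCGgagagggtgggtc
Vmn1r85 (GRCm38.p6, chr7:13085216-13085415, minus strand): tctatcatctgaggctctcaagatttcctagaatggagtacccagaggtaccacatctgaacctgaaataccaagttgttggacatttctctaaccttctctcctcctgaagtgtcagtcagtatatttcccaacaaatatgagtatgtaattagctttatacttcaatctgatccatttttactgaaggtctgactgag
Vmn1r86 (GRCm38.p6, chr7:13102948-13103147, minus strand): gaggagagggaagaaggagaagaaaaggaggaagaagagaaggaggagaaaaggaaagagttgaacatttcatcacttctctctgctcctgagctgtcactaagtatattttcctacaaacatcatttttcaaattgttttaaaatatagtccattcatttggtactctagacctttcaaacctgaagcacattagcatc
Vmn1r87 (GRCm38.p6, chr7:13132359-13132558, minus strand): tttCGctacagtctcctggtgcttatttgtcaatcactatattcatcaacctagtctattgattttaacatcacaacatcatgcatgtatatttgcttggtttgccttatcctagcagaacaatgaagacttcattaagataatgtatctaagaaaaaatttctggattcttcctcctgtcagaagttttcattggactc
Zfp263 and Zfp428 encode zinc finger proteins, Chmp2a is a part of the ESCRT-III membrane scission complex, and the 3 Vmn1r genes encode pheromone receptors of the vomeronasal organ. The 200 bases held 13 CG in Zfp263, 9 in Zfp428 and 9 in Chmp2a, but 0 in Vmn1r85, 0 in Vmn1r86 and 1 in Vmn1r87. Chmp2a and the 3 receptor genes start close together on chromosome 7 and had the same even-numbered 2-Cell rank (0.052) and Mol rank (0.80). The authors smoothed the states over neighbouring bins, so equal ranks at this distance are not independent, and nothing on promoter CG content is read from them. Of the chosen bins' genes, 3196 had a RefSeq promoter window of 300 bases (250 before and 50 after the start), and 57.6% of these were CpG-rich by the usual limits of GC above 50% and an observed over expected CG ratio above 0.6. The share was 50.2% over the 15038 promoters of all called bins, 60.4% in bins early in both odd-numbered sets, and 13.5% in bins late in both.

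The chosen bins held 4184 protein-coding gene starts (counted by gene identifier), or 17.9 per Mb, against 8.58 per Mb over all called bins, 12.6 per Mb in the 10875 bins chosen as early in both stages and 4.47 per Mb in the 10635 chosen as late in both. Their median GC content was 46.1% (quartiles 42.9 and 49.1%), above the 41.4% of all called bins and the 43.8% of the bins early in both. The 4355 bins that the mirror rule picked as turning late had a median GC content of 38.8% and 1.67 gene starts per Mb. Of the chosen bins 14.9% lay within 10 Mb of the end of the chromosome away from the centromere, against 7.85% of all called bins.

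They were not spread evenly. Chromosome 5 had the highest share of its called bins among them (20.5%), followed by chromosome 17 (20.4%), chromosome 11 (17.1%), chromosome 7 (15.8%) and chromosome 4 (15.4%), and chromosome 3 the lowest (2.37%). Neighbouring chosen bins formed 672 runs of median length 250 kb, of which 135 were single bins. The 41 runs of 1 Mb or more held 1257 chosen bins (26.8%). Of the 1344 run ends, 56.8% met a bin that was high in Mol but not low in 2-Cell, and 36.2% a bin that was low in 2-Cell but not high in Mol.

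In the cells that chose them, the median chosen bin had replicated in 38.2% of the odd-numbered 2-Cell cells (all called bins, 47.1%) and in 75% of the odd-numbered Mol cells (all called bins, 62.5%). The 2-Cell limit fell between 44.1% of cells (rank 0.396, 1102 chosen bins) and 45.5% (rank 0.432, 37 bins left out), and the Mol limit between 69.6% (rank 0.603, 40 chosen bins) and 66.7% (rank 0.570, 1147 bins left out). Since many bins sat within 1 cell of a limit, membership at the edge turns on a single cell.

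The early side of the label held in the morula cells that the rule had not used, and the late side held only weakly in 2-cell embryos. In the even-numbered Mol cells the median chosen bin ranked 0.70 (quartiles 0.61 and 0.80) and had replicated in 82.6% of cells, with a 95% exact binomial interval of 61.2 to 95.1% that covers counting error only. There 3667 chosen bins (78.3%) ranked 0.6 or more, against 43% of all bins. In the even-numbered 2-Cell cells the median rank was 0.46 (quartiles 0.25 and 0.62), at 51.7% of cells (interval 32.5 to 70.6%). Only 2232 chosen bins (47.7%) ranked 0.4 or less there, against 41.8% of all bins, and 1264 (26.99%) ranked 0.6 or more. Both limits were met again by 1570 chosen bins (33.5%), against 8.23% of all bins, and the Mol rank was above the 2-Cell rank in 84.4% of chosen bins against 49.6% of all bins. The label "turning early" thus describes the direction of most of these bins in unused cells, while "late in the 2-cell embryo" holds for under 50% of them. Odd- and even-numbered cells were scaled together by the authors within each stage, so the unused cells are not fully independent of the choosing ones.

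**Figure D1:**
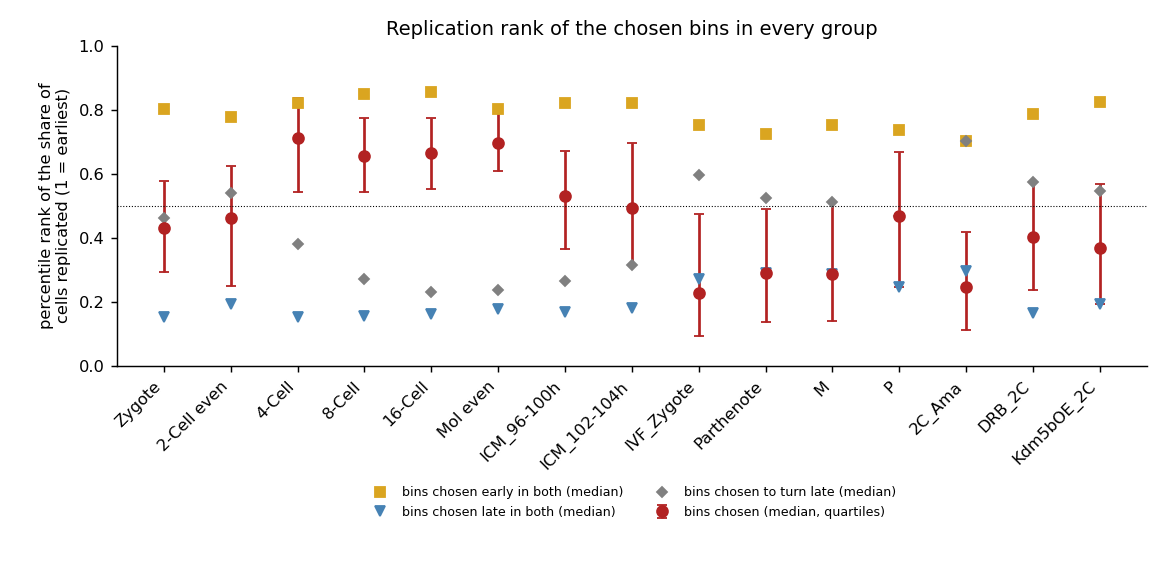
Percentile rank of the share of cells replicated (vertical axis, 1 is earliest) in each group (horizontal axis). Red points are the median and bars the quartiles of the 4683 chosen bins, and other symbols are medians of the bins chosen by the same odd-numbered cells as early in both, late in both or turning late. The chosen bins lie at 0.23 in IVF_Zygote and 0.25 in 2C_Ama, at 0.71 in 4-Cell, and near the middle in ICM.

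By the median rank, the rise was present at the 4-cell stage. The median rank of the chosen bins was 0.43 in Zygote, 0.46 in even-numbered 2-Cell, 0.71 in 4-Cell, 0.66 in 8-Cell, 0.67 in 16-Cell and 0.70 in even-numbered Mol. In 4-Cell 3167 chosen bins (67.7%) ranked 0.6 or more, against 40.6% of all bins, in 8-Cell 2822 (60.3%) against 39.8%, and in 16-Cell 2988 (63.9%) against 39.3%. Quartiles over bins overlapped between neighbours from 4-Cell to Mol. They also overlapped between even-numbered 2-Cell (0.25 and 0.62) and 4-Cell (0.54 and 0.84), and this overlap is no test of a difference between stages. Afterwards the rank was lower: 0.53 in ICM_96-100h and 0.49 in ICM_102-104h. The bins early in both kept medians of 0.80 to 0.86 from 4-Cell to ICM, and those late in both 0.15 to 0.18.

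Cell by cell, the percentage of chosen bins that had replicated was set against that of all other called bins in the same cell, and the difference is called the excess, in percentage points. In the 23 even-numbered Mol cells the excess ran from -18.2 through a median of 25.99 to 47.5, with a mean of 22.7 ± 18.9 (SD), and was positive in 20. In the 29 even-numbered 2-Cell cells it ran from -23.9 through -4.24 to 21.4, with a mean of -2.83 ± 13.1, and was negative in 18. The 2 ranges overlap, and cells of both kinds lie on both sides of 0. The mean excess was -0.855 ± 11.1 in 66 Zygote cells, 11.5 ± 17.2 in 55 4-Cell cells, 10.1 ± 21.28 in 56 8-Cell cells, 17.2 ± 19.9 in 40 16-Cell cells, 5.25 ± 18.96 in 33 ICM_96-100h cells and 0.788 ± 15.2 in 37 ICM_102-104h cells. Between stages next to each other from 4-Cell on, the means differed by less than the SD of either stage. The largest such step was from 22.7 in even-numbered Mol to 5.25 in ICM_96-100h. These SDs are a spread over cells and no test of the means. The place of the excess within S phase also varied. In 4-Cell cells in the first part of S phase (23 cells with scores under 36.7) it was 21.9 ± 7.15, and in the 6 cells of the last part -5.08 ± 7.19, whereas in 16-Cell it was 6.30 ± 18.8 in the 9 cells of the first part and 22.5 ± 10.3 in the 17 of the last.

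**Figure D2:**
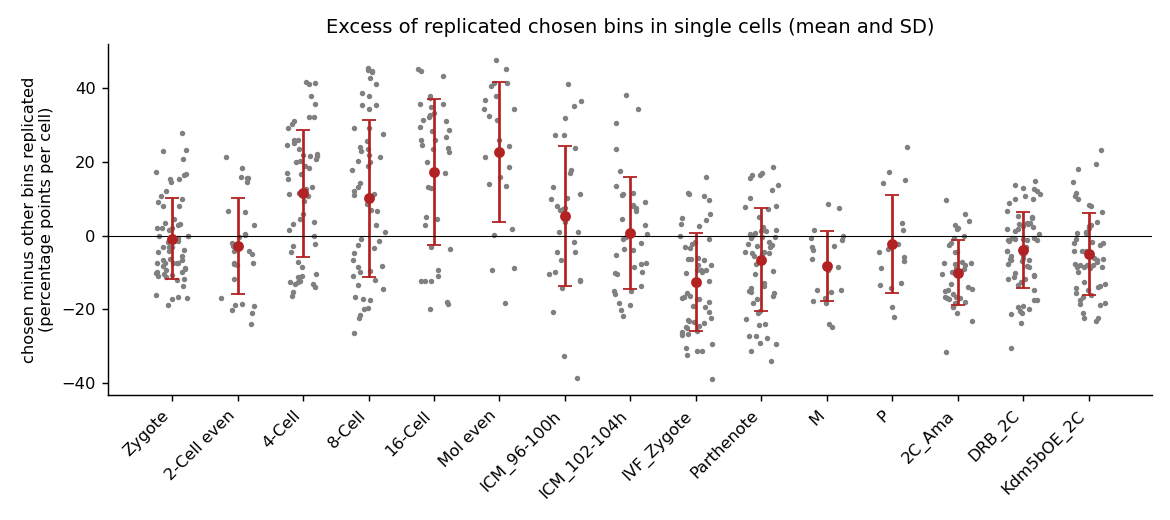
Excess of each cell (grey points), that is, the percentage of chosen bins replicated minus the percentage of other bins replicated, by group, with the mean and SD in red. Of the 23 even-numbered Mol cells 20 lie above 0, and of the 42 2C_Ama cells 36 lie below 0.

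Within a stage the excess changed with the hour at which cells were collected, and by as much as between stages. In the 16 even-numbered 2-Cell cells of 32 to 35 h it was 5.86 ± 9.68 (from -7.47 to 21.4, positive in 11), and in the 13 cells of 37 to 40 h it was -13.5 ± 7.70 (from -23.9 to -0.289, negative in all 13). The later cells gave the chosen bins a median rank of 0.21, with 3221 (68.8%) at 0.4 or less against 39.8% of all bins, and the earlier cells a median rank of 0.57, with 1192 (25.5%) at 0.4 or less against 41.5%. The median replication score was 51.6 in the earlier and 50.98 in the later cells, so progress through S phase was close in both. Relative to all other bins, the chosen bins had a negative mean excess in the even-numbered cells at 37 to 40 h alone. In the odd-numbered cells, which chose the bins, the mean excess lay between -9.68 and -8.68 at 32 to 37 h and between -16.6 and -15.1 at 38 to 40 h.

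The later stages also split by hour. The 4-Cell mean ran from -9.78 ± 4.99 at 53 h (4 cells) to 19.4 ± 17.1 at 54 h (16 cells). The 8-Cell mean fell from 34.3 ± 9.65 at 66 h (4 cells) and 23.5 ± 21.27 at 67 h (16 cells) to 4.96 ± 16.4 at 69 h (18 cells) and -10.5 ± 11.01 at 72 h (11 cells). In those 11 cells 3180 chosen bins (67.9%) ranked 0.4 or less, against 44.7% of all bins. In 16-Cell it was -6.02 ± 9.28 at 77 h (9 cells), where 2468 (52.7%) ranked 0.4 or less against 38.8% of all bins, and 23.98 ± 16.7 at 80 h (31 cells). The median score was 31.1 at 77 h and 65.4 at 80 h, and 4 of the 9 cells at 77 h had failed the study's filter. The 16-Cell value given above therefore rests on the 80 h cells. Whether an hour was also a separate collection is not in the labels, and hour, collection and embryo cannot be told apart.

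**Figure D3:**
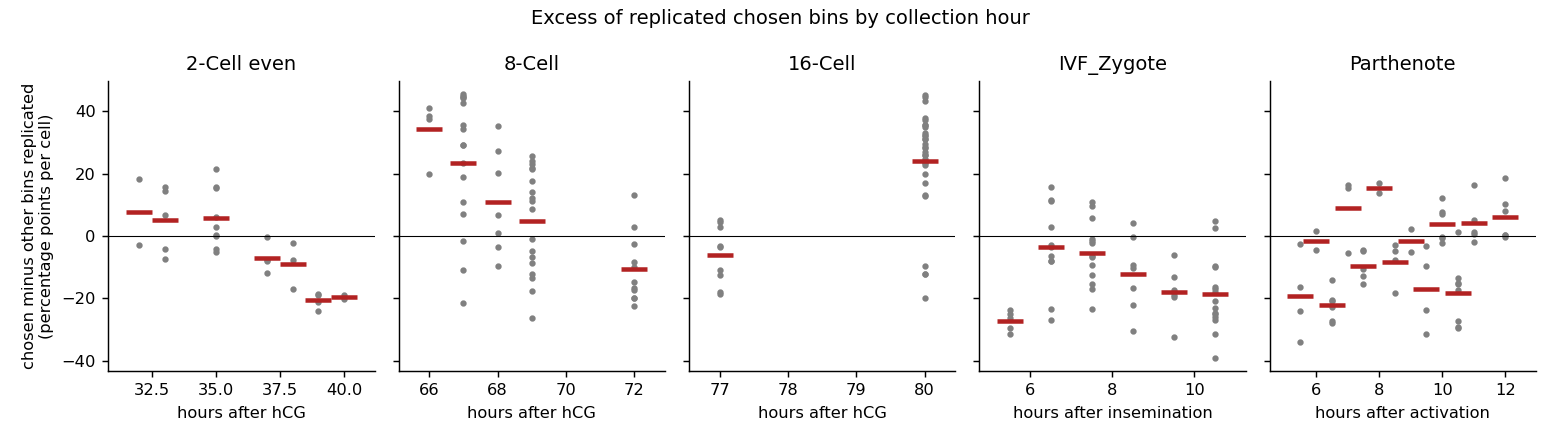
Excess of each cell (grey points, percentage points) against collection hour in 5 groups, with the mean of each hour as a red bar. Even-numbered 2-Cell means go from 7.79 at 32 h to -19.6 at 40 h, 8-Cell means from 34.3 at 66 h to -10.5 at 72 h, and Parthenote means alternate between the hours shared with IVF_Zygote and the other hours.

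Base composition moved with the same contrasts. Across all bins, Spearman's rho between GC content and replication rank was 0.38 in even-numbered 2-Cell and 0.69 in even-numbered Mol, but -0.044 in 2C_Ama, 0.017 in IVF_Zygote and 0.013 in Parthenote (46179 to 46404 bins, which are not independent of their neighbours). The GC content of replicated minus unreplicated bins averaged 3.68 ± 1.92 percentage points per cell in even-numbered Mol and 0.853 ± 1.75 in even-numbered 2-Cell, where it was 1.94 at 35 h and -1.17 at 40 h. The part of base composition in the contrasts above was not tested, but the excess was also taken against other bins of the same GC class, with called bins cut into 5 classes of equal size. Of the chosen bins 54.2% fell in the GC-richest class and 1.32% in the poorest.

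Against bins of like GC content the mean excess of the chosen bins was negative in each one-cell and 2-cell group, and in most of their cells. The excess within GC classes was -8.17 ± 6.19 in even-numbered 2-Cell, negative in 28 of 29 cells, and 5.74 ± 9.32 in even-numbered Mol, positive in 18 of 23. It was -6.48 ± 5.09 in Zygote (57 of 66 negative), -11.6 ± 6.64 in IVF_Zygote (57 of 57) and -6.20 ± 7.01 in Parthenote (46 of 57). In the pronuclei it was negative in 20 of 21 M and 14 of 17 P. It was 1.80 ± 8.85 in 4-Cell, 0.887 ± 9.85 in 8-Cell and 3.82 ± 9.15 in 16-Cell. In the ICM groups it was -2.55 ± 9.27 in ICM_96-100h and -2.87 ± 6.64 in ICM_102-104h, the opposite sign to the excess over all other bins. The even-numbered 2-Cell means by hour ran from -2.61 at 32 h (2 cells) to -17.9 at 39 h (4 cells), so an hourly trend was also present within GC classes, with a negative mean at every hour.

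The GC classes differed in which stage set the chosen bins apart. In the GC-richest class their median rank was 0.46 in even-numbered 2-Cell against 0.70 for other bins, 0.77 in 4-Cell against 0.77, and 0.70 in even-numbered Mol against 0.70. In the poorest class the order was the reverse, with 0.28 against 0.25 in 2-Cell, 0.51 against 0.24 in 4-Cell and 0.61 against 0.14 in Mol. The rule uses ranks over all bins and no GC content. Its 2-Cell limit of 0.4 lies below the median of other bins in the richest class. Its Mol limit of 0.6 lies above that of other bins in the poorest class. These values therefore describe how the choice falls on each class in unused cells. In ICM_102-104h, which had no part in the rule, the GC-richest class (2539 chosen bins) ranked 0.37 against 0.56 for other bins. The poorest class, with only 62 chosen bins, ranked 0.70 against 0.18. The chosen bins of the richest class were thus late again beside their like, and the few of the poorest class stayed early.

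**Figure D4:**
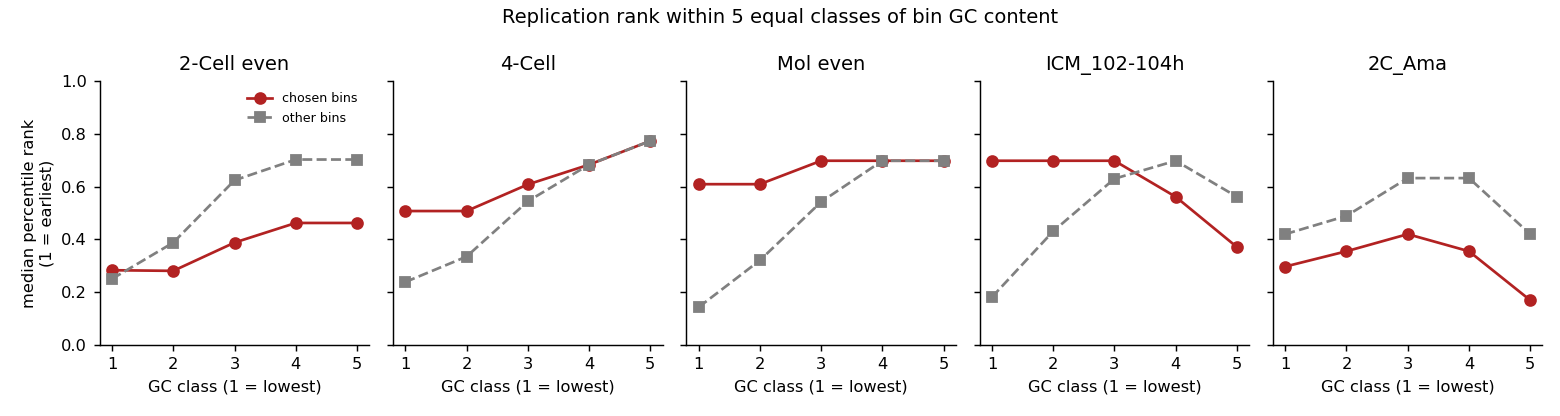
Median percentile rank (1 is earliest) of chosen bins (red) and other called bins (grey) in 5 classes of bin GC content, from poorest to richest, in 5 groups. In even-numbered Mol both meet at 0.70 in the 2 GC-richest classes, and in 2C_Ama the chosen bins lie below the other bins in each class.

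Among one-cell embryos and pronuclei the chosen bins were late in IVF_Zygote, Parthenote and M, and lay near the middle in Zygote and P. Their median rank was 0.23 in IVF_Zygote, 0.29 in Parthenote, 0.29 in M, 0.43 in Zygote and 0.47 in P. At 0.4 or less were 3325 chosen bins (71%) in IVF_Zygote, against 40.7% of all bins, 2952 (63.04%) in Parthenote against 39.8%, and 3068 (65.5%) in M against 44.5%. In Zygote the count was 1889 (40.3%) against 38.7% and in P 2057 (43.9%) against 40%, shares close to those of all bins. The mean excess was -12.5 ± 13.2 in 57 IVF_Zygote cells and -0.855 ± 11.1 in 66 Zygote cells, and the difference of -11.7 passed a two-sided permutation test over embryos (100000 resamples, adjusted p = 6e-05 over 3 comparisons, the smallest that these resamples can give). Within GC classes the difference was -5.11 (permutation adjusted p = 6e-05), less than 50% of that value, and with the study's filter the Zygote mean was 0.98. Of the IVF_Zygote cells 47 of 57 were negative, and of the Zygote cells 42 of 66. The study's methods say that several IVF zygotes were found to be parthenogenetic and were left out. Whether the IVF_Zygote cells used here hold any of them is not in the labels. Hours of these 2 groups run on different clocks and could not be matched. The labels name no litter, so these p-values measure the spread between embryos and may take in technical spread. The authors scaled each bin by the mean of its stage. A shift that all embryos of a group share, from scaling or collection, lies outside these p-values.

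The parthenotes, with maternal chromosomes alone, had a mean excess of -6.51 ± 13.9 (n = 57), which was 6.02 above IVF_Zygote (permutation adjusted p = 0.0298). That difference depended on which hours were included. The hours that only parthenotes hold lie between the shared ones or after them. Whether they were separate collections is not in the labels, so hour and collection cannot be told apart. The 31 parthenotes of the 6 hours shared with IVF_Zygote had a mean of -16.3 ± 9.82, with 1 positive value, while the 26 of the other 7 hours had a mean of 5.14 ± 7.63, with 18 positive values. Within shared hours the parthenotes were lower by 18.8 at 6.5 h (exact permutation adjusted p = 0.0301), and at the other 5 hours the difference ran from -4.28 to 7.89 with exact adjusted p from 0.792 to 0.924. Parthenotes had the higher mean at 4 of the 6 hours, by 0.414 to 7.89, and none of these passed. The mean over the 6 hours was -1.66 ± 9.29, and without 6.5 h it was 1.76 ± 4.49. Maternal pronuclei averaged -8.27 ± 9.48 (n = 21) and paternal pronuclei -2.24 ± 13.3 (n = 17). The difference of -6.03 did not pass (permutation adjusted p = 0.114), although M was negative in 18 of 21 and P in 11 of 17. That test took M and P as unpaired.

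In 2C_Ama most chosen bins ranked late. So did most in IVF_Zygote (median rank 0.23) and in untreated even-numbered 2-Cell cells of 37 to 40 h (0.21). Against bins of like GC content the chosen bins were late in each of the 42 2C_Ama cells. Their median rank in 2C_Ama was 0.25 (quartiles 0.11 and 0.42), below the 0.30 of the bins late in both, and 3186 (68.03%) ranked 0.4 or less against 38.7% of all bins. The excess ran from -31.5 through -10.0 to 9.61 over 42 cells, with a mean of -10.1 ± 8.77, negative in 36. Within GC classes it was -9.11 ± 4.20. In DRB_2C the median rank was 0.40 and the mean excess -3.80 ± 10.3 over 67 cells, or -9.78 ± 5.57 within GC classes, negative in 67 of 67. In Kdm5bOE_2C the median rank was 0.37 and the mean excess -4.99 ± 11.1 over 56 cells, or -7.61 ± 5.41 within GC classes, negative in 52 of 56.

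The treated groups were set against untreated even-numbered 2-Cell cells of the same hours, and no mean difference exceeded its SD over hours. All 3 comparisons share these controls, of which an hour holds 2 to 9. For 2C_Ama the difference was -14.2 at 35 h, 6.06 at 37 h, -5.51 at 38 h and 14.2 at 39 h, a mean of 0.123 ± 12.5 over 4 hours, whereas it was 1.87 within GC classes and -7.27 with all hours pooled. For DRB_2C it was -11.8 at 35 h and between 5.62 and 15.4 at 37 to 40 h, a mean of 6.44 ± 10.8 over 5 hours, and of 1.54 within GC classes. For Kdm5bOE_2C it was -10.1 at 37 h and between 4.35 and 9.84 at 38 to 40 h, a mean of 3.19 ± 9.20 over 4 hours. No test was made, since cells of 1 embryo cannot be told from cells of different embryos in these groups. The 2-Cell means alone went from 5.90 at 35 h to -20.6 at 39 h over these hours, against -8.31 and -6.41 in 2C_Ama.

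The 10 longest runs are described by named neighbourhoods, with ranks averaged over a run, which can hide stretches that differ. The longest, chr4:132850001-137300000, spans 4450 kb with 97 gene starts, among them Arid1a, a subunit of the BAF chromatin remodelling complex, Ephb2, an ephrin receptor, Man1c1, a mannosidase of the Golgi, and Luzp1. It ranked 0.37 in even-numbered 2-Cell, 0.78 in 4-Cell, 0.64 in even-numbered Mol, 0.35 in ICM_102-104h and 0.20 in 2C_Ama. In chr8:121650001-125350000, 3700 kb, with Ankrd11, a chromatin regulator, Disc1, Galnt2, which adds sugars to proteins in the Golgi, and Banp, the ranks were 0.41, 0.69, 0.63, 0.34 and 0.060 in the same order. In chr7:27450001-30000000, 2550 kb, with Ryr1, the calcium release channel of skeletal muscle, Actn4, an actin crosslinker, Sipa1l3 and Samd4b, they were 0.26, 0.89, 0.74, 0.39 and 0.14. Of its 51 bins 50 met both limits again in even-numbered cells, the most of the 10 runs. The count was 39 of 89 in the chromosome 4 run and 19 of 74 in the chromosome 8 run. Single genes differed from their run: Ephb2 ranked 0.42 in 4-Cell and 0.45 in even-numbered Mol, and Disc1 0.29 in 4-Cell.

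The chromosome 7 run is the clearest case, and 2 others differ from it. In chr5:138450001-140850000, with Mad1l1, of the spindle checkpoint, Prkar1b, a regulatory subunit of protein kinase A, Gna12, a G protein, and 3110082I17Rik, 38 of 48 bins met both limits again, at a rank of 0.35 in 2-Cell and 0.70 in Mol. In chr9:105950001-107950000, with Dock3, Cacna2d2, a calcium channel subunit, and the collagen genes Col6a4 and Col6a5, only 2 of 40 did, at 0.66 in 2-Cell, 0.85 in 4-Cell and 0.73 in Mol, so this run was not late in unused 2-Cell cells. In chr17:27700001-29950000, with Fkbp5, a co-chaperone of steroid receptors, Anks1, Cpne5 and Gm28043, 23 of 45 did, at 0.42, 0.94 and 0.71.

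The remaining runs rose alike from 2-Cell to 4-Cell. In the order given here 11 of 39, 17 of 37, 24 of 33 and 21 of 33 bins met both limits again. In chr5:141700001-143650000, with Rnf216, Tnrc18, Cyth3 and Radil, the rank was 0.47 in 2-Cell, 0.79 in 4-Cell and 0.80 in Mol. In chr11:119150001-121000000, with Rptor, the raptor subunit of mTORC1, Rnf213, Ccdc57 and Tbc1d16, it was 0.43, 0.84 and 0.72. In chr15:78850001-80500000, with Cbx7, a Polycomb protein, Cacna1i, Triobp and Fam227a, it was 0.28, 0.84 and 0.69, and in chr17:45350001-47000000, with Ptk7, Cul9, Bicral and Ttbk1, it was 0.36, 0.82 and 0.76. In 2C_Ama the 10 runs ranked between 0.033 and 0.30, and in ICM_102-104h between 0.27 and 0.66. GC content was 46.8 to 50.5% in all 10.

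**Figure D5:**
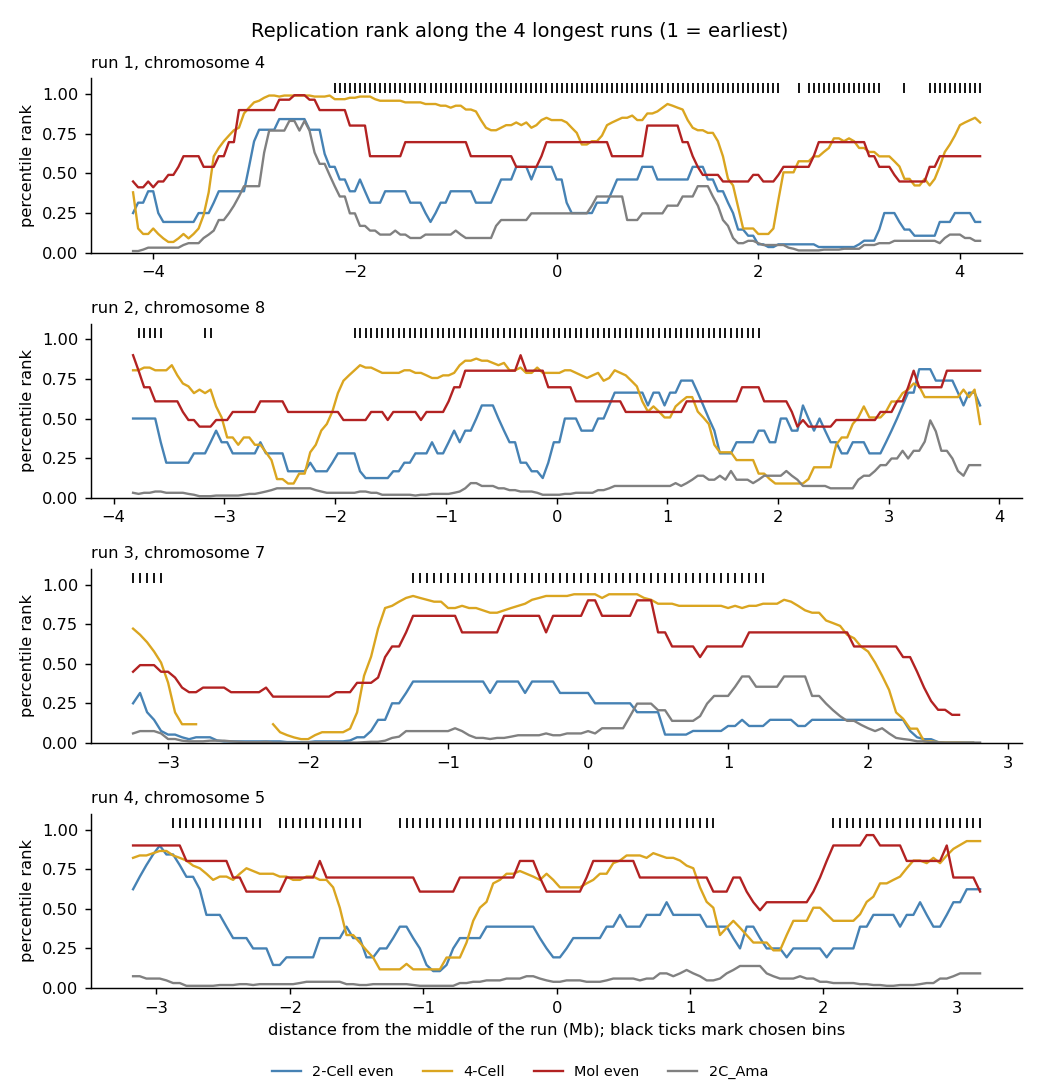
Percentile rank (1 is earliest) of each 50-kb bin along the 4 longest runs and 2 Mb to either side, by distance from the middle of the run, in even-numbered 2-Cell, 4-Cell, even-numbered Mol and 2C_Ama cells. Black ticks mark chosen bins. Over the chromosome 7 run the 4-Cell and Mol lines rise to plateaus while the 2-Cell and 2C_Ama lines stay low.

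Counted once per symbol, of 19818 protein-coding genes with a start in a called bin, 4177 (21.1%) started in chosen bins, and lists of genes are read against that share, as a description. Keratins, the intermediate filaments of epithelia, had the highest share at 33 of 49 (67.3%), and they sit in clusters, so their starts share bins. Krt75, Krt82 and Krt90 shared a 2-Cell rank of 0.19 and a Mol rank of 0.70, but also a 4-Cell rank of 0.12, so this cluster was not early at the 4-cell stage. Over all genes the median rank was 0.54 in even-numbered 2-Cell and 0.70 in even-numbered Mol, and 1450 of the 4177 met both limits again there. The genes named are those of each list that rose most, not typical ones. Of the housekeeping list 15 of 29 (51.7%) started in chosen bins, but 2 of the 15 met both limits again, and the list's median 2-Cell rank was 0.62. Chmp2a ranked 0.052 in 2-Cell and 0.80 in Mol, and the ATPase Vcp 0.25 and 0.70. Ribosome biogenesis genes had 11 of 30 (36.7%), of which 2 met both limits again in a list with a median 2-Cell rank of 0.78. These were Polr1c, a subunit of RNA polymerases I and III, at 0.17 and 0.80, and the rRNA methyltransferase Fbl at 0.39 and 0.80, while Nop10 was at 0.25 and 0.54. Ribosomal protein genes had 27 of 76 (35.5%), 11 of them meeting both limits again, with Rpl28 at 0.11 and 0.61, and Rpl7 at 0.32 and 0.80.

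The lists of embryonic lineages are short, and their counts of 7, 7 and 2 genes are given as values with nothing read from their distance to the share of all genes. Of the pluripotency list 7 of 24 (29.2%) started in chosen bins and 6 of these met both limits again, while the list's median rank was 0.62 in 2-Cell and 0.80 in Mol. Fgf4, the growth factor that the inner cells send to the primitive endoderm, ranked 0.25 in 2-Cell, 0.76 in 4-Cell, 0.97 in Mol and 0.43 in ICM_102-104h. Dppa2 and Dppa4, neighbouring genes whose proteins act together on chromatin in early embryos, ranked 0.19 and 0.19 in 2-Cell, 0.58 and 0.54 in 4-Cell, 0.90 and 0.80 in Mol, and were at 0.82 in ICM_102-104h. Of the trophectoderm list, with medians of 0.54 and 0.80, 7 of 21 (33.3%) did and 3 met both limits again, with Tead4, the transcription factor that starts that lineage, at 0.39 in 2-Cell, 0.77 in 4-Cell and 0.97 in Mol, Krt7 at 0.15, 0.067 and 0.61, and Hand1 at 0.46, 0.89 and 0.90. Of the primitive endoderm list, with medians of 0.84 and 0.75, 2 of 20 (10%) did, the transcription factor Hnf4a at 0.39 and 0.80, and Afp, which encodes the fetal serum protein alpha-fetoprotein, at 0.90 and 0.80, so Afp was not late in unused 2-Cell cells.

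Genes that copy DNA had 15 of 46 (32.6%) starts in chosen bins, 3 of them meeting both limits again. The clamp loader subunit Rfc4 ranked 0.39 in 2-Cell and 0.90 in Mol, the catalytic subunit of DNA polymerase delta Pold1 0.035 and 0.54, and the helicase subunit Mcm4 0.19 and 0.70. Oxidative phosphorylation genes had 20 of 82 (24.4%), with Cox6b2 at 0.11 and 0.61, Atp5j2 at 0.25 and 0.70 and Ndufaf8 at 0.25 and 0.70. Proteasome genes had 9 of 38 (23.7%), with Psmd8 at 0.19 and 0.90, Psma7 at 0.19 and 0.70 and Psmc4 at 0.39 and 0.70. Hox genes had 10 of 39 (25.6%), and Hoxb3, Hoxb4 and Hoxb5 shared a 2-Cell rank of 0.70 and a Mol rank of 0.90, so they too were early in unused 2-Cell cells. Oocyte genes had 4 of 22 (18.2%), with Nlrp4f at 0.46 and 0.70 and the egg coat genes Zp3 at 0.70 and 0.90 and Zp1 at 0.78 and 0.90.

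The list of genes read out at major genome activation had 1 of 13 (7.69%), Eif1ad, at 0.62 in 2-Cell and 0.70 in Mol. The list of histone genes had 1 of 68 (1.47%), H1f0, at 0.11 and 0.54, and long neuronal genes 0 of 32, or 4 of 32 when any overlap of the gene with a chosen bin was counted. Olfactory receptors had 60 of 1111 (5.40%), with Olfr221 and Olfr524 both at 0.15 and 0.80 and Olfr282 at 0.32 and 0.90, and vomeronasal receptors 16 of 203 (7.88%). Zinc finger genes had 94 of 348 (27.01%), with Zfp263 at 0.035 and 0.80, Zfp428 at 0.15 and 0.90 and Zfp128 at 0.052 and 0.80. Zfp263 ranked 0.94 in 4-Cell and 0.0071 in 2C_Ama, and Zfp128 0.38 and 0.025.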

How the data were processed

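Single cells were analysed by single-cell Repli-seq. The authors aligned reads with Bowtie2 2.3.5 to mm10, kept them with SAMtools 1.9, counted them with bedtools 2.29.0 in 50-kb bins, scaled each cell and each bin by the mean of its stage, masked extreme bins, smoothed and segmented the signal, and deposited a replication state per bin and cell, a binary score of 0 or 1 with missing calls. Scaling by the stage mean removes any copy number that the cells of that stage share, and the tables hold no read counts, so the depth behind a state is unknown.

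Cells with a score of 10 to 90 were used. Shares of cells were ranked with ties averaged (Python 3.11.15, pandas 2.3.3, NumPy 2.4.6). Differences between one-cell groups were tested with permutation tests in SciPy 1.17.1 (100000 resamples, two-sided, Benjamini-Hochberg over 3), checked on simulated data. Genes are GENCODE M21 (GRCm38), placed by their start, and promoters RefSeq GRCm38.p6, matched by symbol. Both share the chromosome lengths of the files. Members, gene lists and comparisons were chosen with earlier results of these data known. Named genes are up to 4 of the longest in each of the 10 longest runs and, per list, up to 3 with the largest rise of rank from even-numbered 2-Cell to even-numbered Mol; the 6 printed promoters are the first by that rise outside chromosome 18. Some genes that this rule names are not reported here. Alternatives were the study's filter, scores of 20 to 80, interval-averaged shares, log2 odds ratios, bins called in most cells, thresholds of 0.3 and 0.7, other membership and single hours left out. Comparison within GC classes, parthenotes of shared hours only, shared hours left out in turn, and membership from filtered cells were added after the data were seen. Of the labelled samples, those without deposited states here were not analysed.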

Additional observations from a re-analysis of the deposited data

How the results depend on the processing

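The median ranks of the chosen bins stayed within counting error in 164 of the alternatives over the 15 groups and moved in 1, and the mean excess within 1 SD over cells in 179 and moved in 1. The exception in both was 16-Cell without its 80 h cells, at a rank of 0.28 and an excess of -6.02. These limits are wide, so the counts do not show that the values held. Within GC classes the mean excess went from 22.7 to 5.74 in even-numbered Mol, which counts as unmoved. In ICM_96-100h it went from 5.25 to -2.55, which also counts as unmoved. For log2 odds ratios a move needed a reversal of sign in a group whose mean excess exceeded its SD. Only even-numbered Mol and 2C_Ama met that condition, so no other group could move. In Zygote the sign did reverse, from an excess of -0.855 to a log2 odds ratio of 0.052, which counts as unmoved. Leaving out 1 hour moved the even-numbered 2-Cell excess between -6.76 and 0.0042, and the 8-Cell excess between 4.72 and 15.1. The number of chosen bins that met both limits again was 136 of 1741 with thresholds of 0.3 and 0.7 (7.81%, against 1.37% of all bins), and 1209 to 2180 without 1 hour of 2-Cell. Membership from filtered odd-numbered cells gave 3783 bins, 3423 of them in common.

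The difference between Parthenote and IVF_Zygote lost its call with scores of 20 to 80 (5.62, permutation adjusted p = 0.0625) and with filtered cells (4.43, permutation adjusted p = 0.101). Within single hours it was 7.89 at 5.5 h, 3.78 at 8.5 h, 0.993 at 9.5 h and 0.414 at the last shared hour, and the other sign at 6.5 h (-18.8) and 7.5 h (-4.28). With parthenotes of shared hours only it was -3.75 (permutation p = 0.169). The cause was not tested. IVF_Zygote minus Zygote kept its sign and call in the 5 alternatives run, but fell to -5.11 within GC classes. Whether M and P samples of 1 number came from 1 zygote is not settled, although both pronuclei of a zygote were processed. Over 10 pairs of 1 number the correlation of deviations ran from -0.035 to 0.084. Each pronucleus's own mean and its group's mean per bin were taken out first, so shared progress through S phase could not show. Taken as pairs, they gave -2.86 for M minus P (sign-flip permutation p = 0.369), which changed no call. The study's methods say that some pronuclei were exchanged after their parental reads were counted, and the labels were used as deposited. The differences at matched hours stayed within 1 SD over hours. With all hours pooled they were -7.27, -0.967 and -2.16 for 2C_Ama, DRB_2C and Kdm5bOE_2C, and within GC classes 1.87, 1.54 and 2.83. Against all 2-Cell cells they were 2.82, 8.19 and 3.25. That control includes the odd-numbered cells, in which the bins were chosen to be late, so it is no independent check. With thresholds of 0.3 and 0.7 the difference for 2C_Ama was -0.979, so its sign is not settled. The mean over shared hours of Parthenote minus IVF_Zygote ran from -3.57 to 1.76 without 1 hour. Counting any overlap raised the genes of chosen bins from 4177 to 4533.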
